A study of Mus musculus with 18 samples.

Results

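The BCL2 family genes are described here in CD8 T cells sorted from mouse spleen, as 10 genes chosen by name from the 56748 gene IDs of the count files. They comprise the anti-apoptotic genes Bcl2, Bcl2l1 and Mcl1, the effector genes Bax and Bak1, and the BH3-only genes Bcl2l11, Bbc3, Pmaip1, Bid and Bad. Each symbol matched 1 Ensembl ID in GENCODE M21, and all 10 genes passed the filter on low counts. The data are 18 poly-A RNA-seq libraries from WT mice, 6 for each of 3 diets. HFD mice were fed high fat diet for 12 weeks. SW mice had high fat diet for the initial 6 weeks and normal diet for the following 6. ND mice stayed on normal diet for 12 weeks. A library is named by its diet and replicate number, so HFD 1 is replicate 1 of HFD. The number is that of the sample title, and the deposited files number the libraries differently but alike in every diet. Total counts ran from 11947339 to 16398340 per library. The labels give no age, sex or strain, and do not say whether each library came from a separate mouse, so p-values measure the spread between these samples, which may be technical in part.

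BCL2 family proteins set whether the outer membrane of the mitochondrion is breached, the step that commits a cell to intrinsic apoptosis. The effectors BAX and BAK form the pores, the anti-apoptotic proteins BCL2, BCL-XL (from Bcl2l1) and MCL1 hold effectors and BH3-only proteins in check, and BH3-only proteins relay death signals by binding them. In T cells IL-7 and IL-15 signalling sustains BCL2 and MCL1, BIM (from Bcl2l11) removes cells that lose such signals, and PUMA (from Bbc3) and NOXA (from Pmaip1) are target genes of p53. PUMA transcription is also driven by FOXO factors and by glucocorticoids, and NOXA binds mainly MCL1 and promotes its degradation.

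The sorted cells carried their defining markers. All 8 genes of a CD8 T cell list passed the filter, the edgeR test called none in HFD against ND (0 at an unadjusted p under 0.05, 0 by DESeq2), and their summed level ran from 5798 to 6528 CPM in HFD, from 5928 to 6300 CPM in SW and from 5880 to 6426 CPM in ND (CPM, counts scaled by library size after TMM normalization). The summed level of the B cell list was 438 to 889 CPM in HFD, 283 to 481 CPM in SW and 236 to 606 CPM in ND, mostly from Cd74, with HFD 1 highest at 889 CPM. The B cell transcription factor genes Pax5 and Ebf1 and the kinase gene Blk had at most 8 counts in any library. Erythroid markers differed between libraries, with a summed level of 12.0 to 339 CPM in HFD, 30.0 to 86.7 CPM in SW and 15.2 to 40.8 CPM in ND. HFD 4 was highest at 339 CPM and HFD 1 next at 162 CPM. Replicates 1 and 2 of every diet are known from earlier results to stand apart from replicates 3 to 6 in overall expression, and the labels do not say what the numbers mark.

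The 10 genes spanned a wide range of transcript levels. In FPKM, which scales counts by gene length so that genes can be compared, Mcl1 had by far the highest mean, 177 ± 12.9 (SD over all 18 libraries), above 98.2% of the tested genes. Its lowest library, at 139 FPKM, lay above the highest library of every other member. Bax came next at 52.9 ± 5.18 FPKM, followed by Bbc3 at 29.3 ± 11.4 and Bcl2 at 26.1 ± 2.83. Bbc3 was above Bcl2 in 8 of 18 libraries, so the order of this pair was not fixed. Bak1 averaged 16.7 ± 1.22 FPKM and Bcl2l11 10.8 ± 0.95. Bid, at 8.90 ± 1.09 FPKM, and Pmaip1, at 8.42 ± 2.15, were neighbours whose ranges overlapped, with Bid higher in 11 of 18 libraries. Bcl2l1 at 4.88 ± 0.456 FPKM and Bad at 2.62 ± 0.436 were the lowest, and the ranges of these 2 genes did not overlap. The ranges of Bax and Bbc3 and of Bcl2l11 and Bid also overlapped. Each gene was above its next neighbour in 17 of 18 libraries in both of those pairs.

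**Figure D1:**
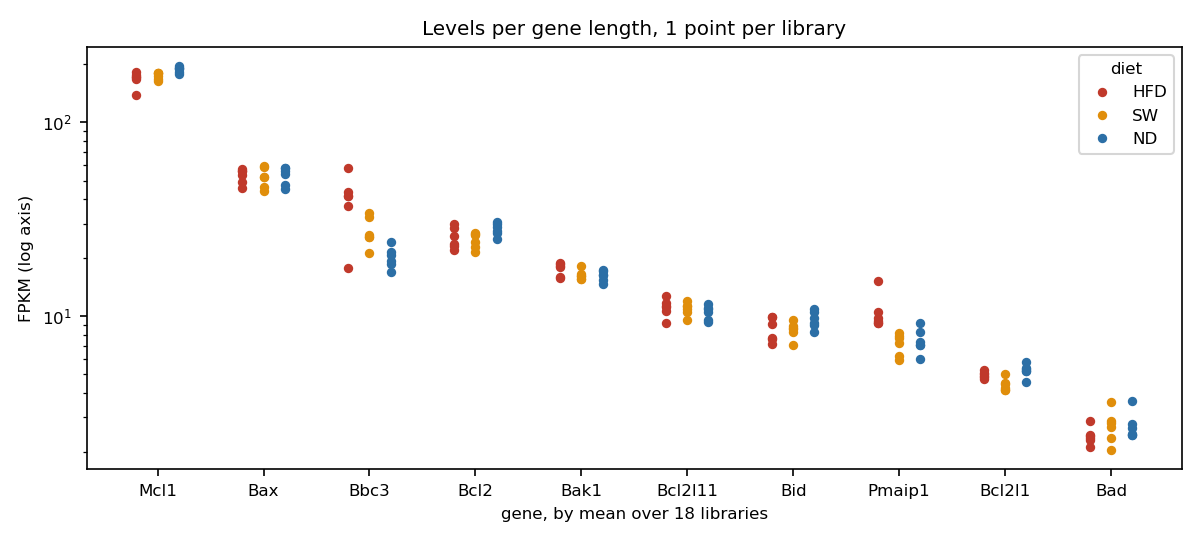
Level of each gene in FPKM on a log axis, 1 point per library, with HFD left, SW in the middle and ND right for each gene. Mcl1 lies above all others in every library, and Bbc3 has the widest scatter, from 17.0 to 58.2 FPKM.

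Across the 18 libraries most members varied little, and Bbc3 and Pmaip1 varied most. The coefficient of variation was 38.8% for Bbc3 and 25.1% for Pmaip1, against 7.19% for Bak1, 7.48% for Mcl1 and values between 8.66% and 16.7% for the other 6 genes. The effector genes had similar sums on the 3 diets. The summed FPKM of Bax and Bak1 was 70.6 ± 5.25 in HFD, 68.7 ± 6.34 in SW and 69.5 ± 5.45 in ND (SD, n = 6 each). The anti-apoptotic sum was 198 ± 12.7 FPKM in HFD, 203 ± 6.32 in SW and 221 ± 7.29 in ND. The sum of the 5 BH3-only genes was 72.6 ± 13.8 FPKM in HFD, 56.9 ± 5.83 in SW and 50.6 ± 2.36 in ND, and Bbc3 alone made up 40.0, 27.6 and 20.2 FPKM of these means. Sums were not tested.

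Promoter sequence was examined because the members differed in how far they varied. RefSeq windows on GRCm38.p6, from 250 bases before to 50 bases after an annotated start, were matched by symbol for 9 members (15 windows), and none was used for Pmaip1. The FOXO core GTAAACA, searched on both strands, lay in a window of Bbc3 and in a window of Bcl2l11 and in no other member window. It is present in 3.65% of the 32851 windows of all genes. A p53 half-site, searched on both strands, lay in the Bax window only. The consensus pattern is its own reverse complement, so this 1 site matches on both strands, and the pattern is present in 8.36% of windows. The GC box GGGCGG, bound by SP1, was found in at least 1 window of 7 members and in 35.7% of all windows. The CCAAT box was found in windows of Bcl2l11, Bbc3 and Bad and in 37.4% of all. Some members have more than 1 window, so a count of members is not on the scale of a share of windows. Neither the TATA box TATAAA, present in 13.6% of windows, nor the glucocorticoid receptor half-site AGAACA, present in 19.0%, was found in any member window on either strand. The 3 windows that hold the FOXO core or the p53 half-site are shown, in lower case with every match to a searched motif in capitals. These are the Bbc3 window chr7:16310011-16310310 (plus strand), the Bcl2l11 window chr2:128125788-128126087 (plus strand) and the Bax window chr7:45466849-45467148 (minus strand), each written 5′ to 3′ along the gene.
Bbc3: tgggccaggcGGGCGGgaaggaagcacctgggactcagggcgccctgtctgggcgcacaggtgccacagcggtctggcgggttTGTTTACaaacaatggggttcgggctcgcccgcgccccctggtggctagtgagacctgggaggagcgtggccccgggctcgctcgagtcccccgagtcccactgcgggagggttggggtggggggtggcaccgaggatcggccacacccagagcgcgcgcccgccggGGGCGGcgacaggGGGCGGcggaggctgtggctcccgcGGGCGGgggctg
Bcl2l11: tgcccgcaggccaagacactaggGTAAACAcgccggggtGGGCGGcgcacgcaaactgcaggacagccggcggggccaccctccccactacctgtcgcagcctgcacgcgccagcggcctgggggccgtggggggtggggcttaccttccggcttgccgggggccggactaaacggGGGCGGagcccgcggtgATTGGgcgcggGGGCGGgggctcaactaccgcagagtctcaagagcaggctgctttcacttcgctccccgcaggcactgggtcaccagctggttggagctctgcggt
Bax: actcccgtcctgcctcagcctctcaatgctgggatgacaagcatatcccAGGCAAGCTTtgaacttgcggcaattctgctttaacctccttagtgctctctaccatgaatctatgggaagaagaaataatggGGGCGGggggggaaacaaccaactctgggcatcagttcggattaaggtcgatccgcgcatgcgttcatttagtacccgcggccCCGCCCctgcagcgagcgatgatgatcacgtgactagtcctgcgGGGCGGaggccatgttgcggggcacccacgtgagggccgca
In the Bbc3 window the FOXO core lies on the opposite strand, as TGTTTAC, 167 bases upstream of the start, and in the Bcl2l11 window it lies on the gene's strand 227 bases upstream. The Bax half-site AGGCAAGCTT lies 201 bases upstream. The Bbc3 windows were 74.7% to 78.0% GC, against a median of 52.7% over all windows. The Bcl2 window was 76.0% GC and the Bcl2l11 windows 71.0% and 74.0%, and the Bcl2l1 windows were lower, at 49.3% to 55.7%. A match is a run of letters and does not show binding.

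Continued high fat diet was compared with normal diet to ask whether the balance of survival and death genes differs in these cells. Bbc3 and Pmaip1, both BH3-only genes, rose in HFD, and the other 8 members were not called. The edgeR quasi-likelihood test, with Benjamini-Hochberg adjustment over 13690 genes and a threshold of 0.05, called 2 of 10 members, both higher, against 1.62% of all tested genes called and 0.665% called higher. At an unadjusted p under 0.05 there were 4 members, against 14.9% of all genes. The members' median log2 fold change was -0.05 and that of all tested genes 0.01, with 4 members above 0 and 6 below.

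Bbc3, which encodes PUMA, is ENSMUSG00000002083 on chromosome 7, 16308393 to 16318205 of GRCm38. Its lowest, median and highest levels were 36.3, 85.0 and 119 CPM in HFD, 43.5, 53.2 and 69.6 CPM in SW, and 34.8, 41.3 and 49.9 CPM in ND. HFD 1 was the low library, within the ND range, and the other 5 HFD libraries, from 75.4 CPM upward, lay above every ND and every SW library. The HFD over ND log2 fold change was 0.97 ± 0.21 (SE; 95% interval 0.53 to 1.42; edgeR adjusted p = 0.0310), a 1.96-fold difference. With HFD 1 left out the log2 fold change was 1.12 and the adjusted p 7.65e-05. The call was kept in 10 of 18 fits with 1 library left out. It was lost without HFD 2, HFD 4, HFD 6, ND 1, ND 2, ND 3, ND 4 or ND 5, at edgeR adjusted p-values of 0.0557 to 0.0709 and log2 fold changes of 0.83 to 0.99. Within replicates 3 to 6 alone the log2 fold change was 1.06 (edgeR adjusted p = 0.0240), and within replicates 1 and 2, where each diet has 2 libraries, it was 0.70 (adjusted p = 0.807).

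Pmaip1, which encodes NOXA, is ENSMUSG00000024521 on chromosome 18, 66458533 to 66465565. Its lowest, median and highest levels were 24.1, 25.3 and 39.7 CPM in HFD, 16.0, 19.7 and 21.5 CPM in SW, and 15.9, 19.1 and 24.5 CPM in ND. All 6 HFD libraries lay above every SW library, 4 of them lay above every ND library, and HFD 2 was the high library. The HFD over ND log2 fold change was 0.48 ± 0.12 (SE; 95% interval 0.23 to 0.72; edgeR adjusted p = 0.0381). Without HFD 2 it was 0.34, with an adjusted p of 0.0955. The call was also lost without HFD 4, HFD 6, ND 1, ND 3, ND 4, ND 5 or ND 6, at edgeR adjusted p-values of 0.0535 to 0.103, and it was kept in the other 10 fits. Within replicates 3 to 6 the log2 fold change was 0.43 (edgeR adjusted p = 0.0373), and within replicates 1 and 2 it was 0.54 (adjusted p = 0.590). Pmaip1 was the only member called for any difference among the 3 diets (edgeR adjusted p = 0.0250; 0.898% of genes called), a call lost without HFD 2, HFD 4, HFD 6, SW 5 or ND 3. Bbc3 had an adjusted p of 0.0677 in that test and was called in it without HFD 1.

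**Figure D2:**
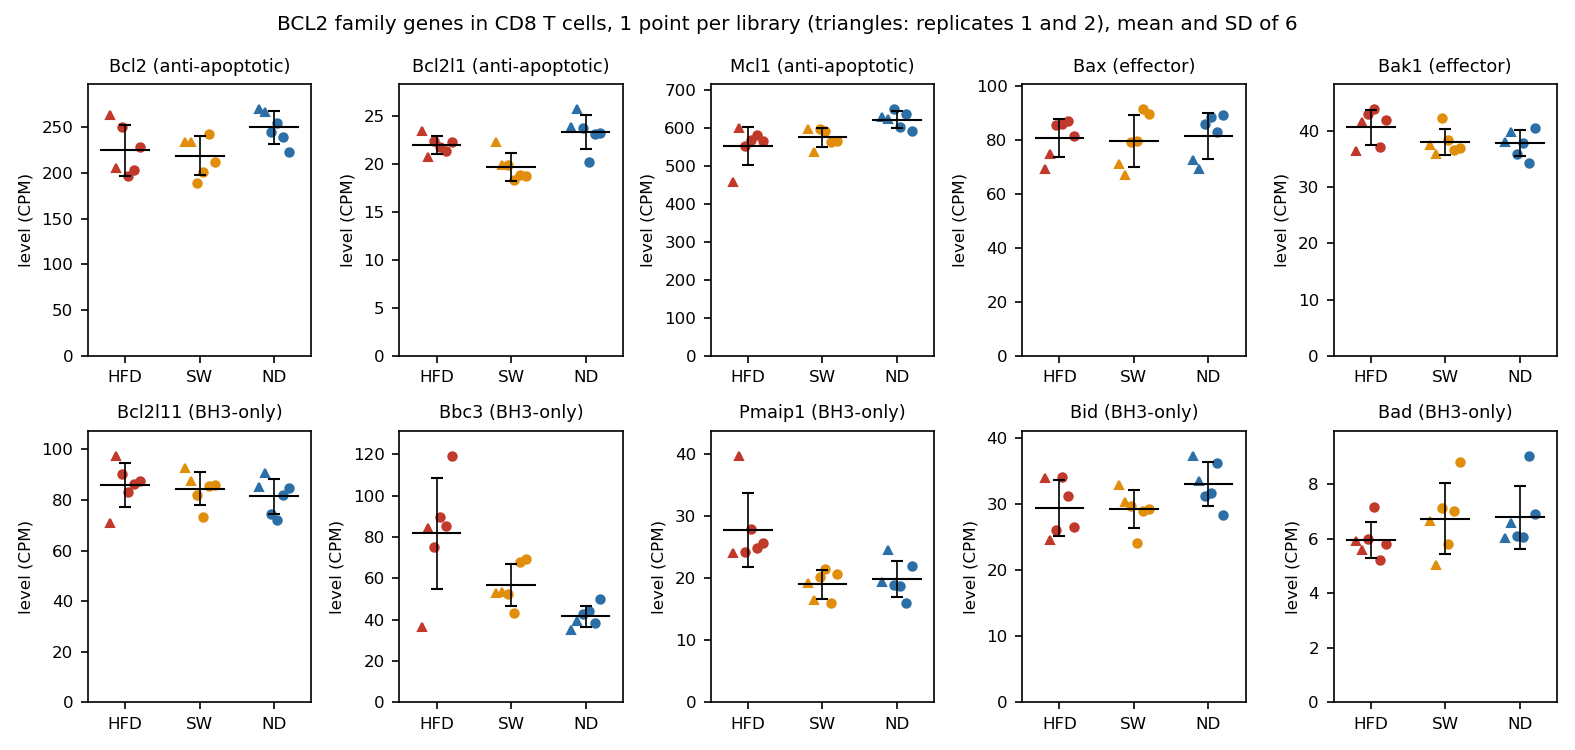
Level of each member in CPM, 1 point per library, for HFD, SW and ND from left to right, with the mean and SD of 6. Bbc3 has 5 HFD libraries above 75 CPM and 1 at 36.3 CPM, and all 6 HFD libraries of Pmaip1 exceed the highest SW library.

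Signals from other cells and cell states moved beside these differences. Of 17 markers of CD8 T cells in effector or memory states, edgeR called 8 higher in HFD against ND, against 0.665% of all tested genes. DESeq2 called 12 of them, and 13 had an unadjusted p under 0.05 in edgeR. The summed level of the 17 was 1939 to 2414 CPM in HFD, 1598 to 2152 CPM in SW and 1607 to 1898 CPM in ND. Of 7 erythroid genes tested, with a median log2 fold change of 1.98, edgeR called 0, DESeq2 called 5, and 6 had an unadjusted p under 0.05 in edgeR. With the erythroid level as a covariate the log2 fold changes were 1.08 for Bbc3 (edgeR adjusted p = 0.0577) and 0.50 for Pmaip1 (adjusted p = 0.0938). Without HFD 1 and HFD 4 together, a choice made after seeing the data, Bbc3 stayed called, and Pmaip1 had a log2 fold change of 0.52 and an adjusted p of 0.0501. Other marker lists also moved in HFD against ND. The 8 genes of naive and central T cells were all above 0, with a median log2 fold change of 0.15. Of these edgeR called 1, Il7r, which is also in the cytokine signalling list below. Plasma cell genes had a median of 1.51 over 2 tested (0 called by edgeR, 2 at an unadjusted p under 0.05; DESeq2 called Jchain), at a summed 19.2 to 78.9 CPM in HFD, 15.9 to 57.6 CPM in SW and 6.31 to 33.1 CPM in ND. Monocyte, macrophage and neutrophil genes had a median of 0.71 over 9 tested (0 called by edgeR, 4 at an unadjusted p under 0.05; DESeq2 called Lyz2), at a summed 762 to 914 CPM in HFD, 619 to 872 CPM in SW and 717 to 899 CPM in ND. Dendritic cell genes had a median of 0.28 over 6 tested (0 called by edgeR, 2 at an unadjusted p under 0.05; DESeq2 called Siglech and Itgax). B cell genes had a median of 0.29 over 5 tested (0 called by edgeR or DESeq2, 1 at an unadjusted p under 0.05). CD4 T cell genes had a median of 0.16 over 8 tested, with 7 above 0. Of these 0 were called by edgeR or DESeq2, 1 had an unadjusted p under 0.05, and limma-voom called Cd4. NK cell genes had a median of 0.17 over 5 tested, with 3 above 0 and 0 at an unadjusted p under 0.05. The part of these lists, the erythroid list apart, in the differences of Bbc3 and Pmaip1 was not tested. In bulk RNA, a different share of cells and a different amount of RNA per cell cannot be told apart.

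The anti-apoptotic genes were not called in HFD against ND. Mcl1 had lowest, median and highest levels of 457, 566 and 598 CPM in HFD, 537, 578 and 598 CPM in SW, and 591, 626 and 649 CPM in ND. The low library was again HFD 1, and 5 of 6 HFD libraries lay below every ND library. The Mcl1 log2 fold change was -0.17 ± 0.05 (SE; edgeR adjusted p = 0.117), with all 6 HFD libraries below the ND mean. DESeq2 called it (adjusted p = 0.0428), as did edgeR with library totals in place of TMM (adjusted p = 0.0476) or with the replicate set as a factor (1 and 2, or 3 to 6; adjusted p = 0.0425). Within replicates 3 to 6 the Mcl1 log2 fold change was -0.14 (edgeR adjusted p = 0.170), and within replicates 1 and 2 it was -0.24 (adjusted p = 0.639). Without HFD 1 it was -0.12 (edgeR adjusted p = 0.183), and 0 of 18 fits with 1 library left out called Mcl1. Bcl2 ran from 196 through a median of 217 to 263 CPM in HFD, from 189 through 223 to 242 CPM in SW, and from 222 through 250 to 270 CPM in ND. Its ranges overlapped, at a log2 fold change of -0.15 ± 0.07 (edgeR adjusted p = 0.327). Bcl2l1 ran from 20.7 through 22.0 to 23.4 CPM in HFD, from 18.3 through 19.3 to 22.3 CPM in SW, and from 20.2 through 23.5 to 25.7 CPM in ND. All HFD libraries of Bcl2l1 lay within the ND range, at a log2 fold change of -0.09 ± 0.07 (edgeR adjusted p = 0.630).

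The effector genes had like levels on the 3 diets. Bax had lowest, median and highest levels of 69.3, 83.5 and 87.0 CPM in HFD, 67.1, 79.5 and 91.4 CPM in SW, and 69.4, 84.5 and 89.2 CPM in ND. The log2 fold change in HFD against ND was -0.01 (95% interval -0.17 to 0.15; edgeR adjusted p = 0.964). For Bax the 6 libraries of replicates 1 and 2 ran from 67.1 to 74.7 CPM. The 12 of replicates 3 to 6 ran from 79.4 to 91.4 CPM, with no overlap. These replicates stand apart in overall expression, and the share of all tested genes that separate in this way was not counted. Bak1 ran from 36.4 through a median of 41.7 to 43.8 CPM in HFD, from 35.9 through 37.2 to 42.3 CPM in SW, and from 34.4 through 37.9 to 40.4 CPM in ND. Its log2 fold change was 0.10 (95% interval -0.03 to 0.23; edgeR adjusted p = 0.463), with 4 of 6 HFD libraries above every ND library.

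The remaining BH3-only genes did not pass the test. Bcl2l11, which encodes BIM, ran from 71.1 through a median of 86.9 to 97.5 CPM in HFD, from 73.3 through 85.9 to 92.6 CPM in SW, and from 72.2 through 83.4 to 90.6 CPM in ND. Its log2 fold change in HFD against ND was 0.08 (95% interval -0.07 to 0.22; edgeR adjusted p = 0.658). Bid, whose protein links death receptors to mitochondria once it is cleaved by caspase-8, ran from 24.5 through 28.9 to 34.1 CPM in HFD, from 24.1 through 29.4 to 32.9 CPM in SW, and from 28.4 through 32.6 to 37.3 CPM in ND. Its log2 fold change was -0.17 ± 0.09 (edgeR adjusted p = 0.393). Bid shares 628 exon bases with Bcl2l13 on the opposite strand, which had 605 to 999 counts. Bad, whose protein is held inactive by phosphorylation, ran from 5.22 through 5.86 to 7.17 CPM in HFD, from 5.02 through 6.82 to 8.80 CPM in SW, and from 6.01 through 6.33 to 9.04 CPM in ND. Its log2 fold change was -0.18 ± 0.14 (edgeR adjusted p = 0.588), on 70 to 130 counts per library. Bad shares 524 exon bases with Gpr137, also on the opposite strand. Since the labels do not say that strand was kept, reads in these shared stretches cannot be assigned with certainty.

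**Figure D3:**
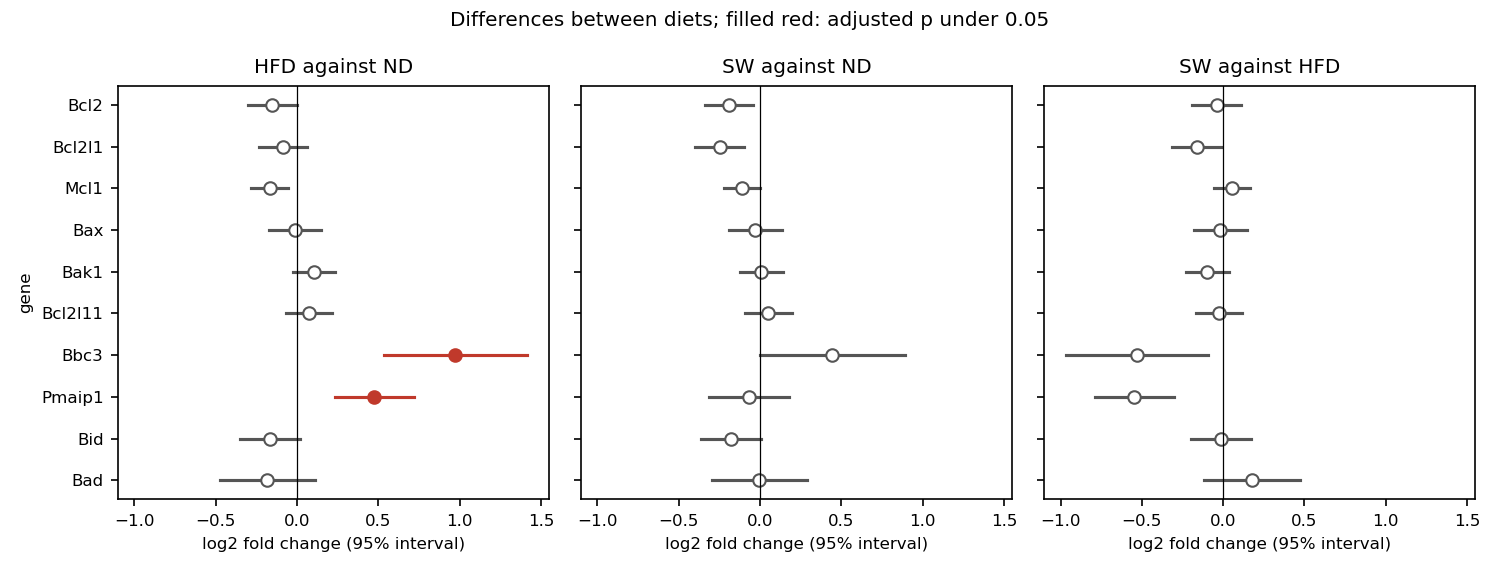
Log2 fold change of each member with its 95% interval in HFD against ND, SW against ND and SW against HFD. Filled red points, Bbc3 and Pmaip1 in HFD against ND, passed an adjusted p of 0.05, and no member passed in the other 2 comparisons.

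The switched diet was compared with continued normal diet. The series holds no library from the time of the switch, so a difference cannot be traced to a change before it. No member was called, against 0.0146% of all tested genes (2 genes) in the edgeR test, and 4 members had an unadjusted p under 0.05, against 6.81% of all genes. Bcl2l1 had the smallest p of the 10, with a log2 fold change of -0.25 ± 0.07 (SE; edgeR unadjusted p = 0.00230, adjusted p = 0.317), and 5 of 6 SW libraries lay below every ND library. Bcl2 differed by -0.19 ± 0.07 (edgeR adjusted p = 0.558) and Mcl1 by -0.11 ± 0.05 (adjusted p = 0.733), with all 6 SW libraries below the ND mean for both. Bbc3 differed by 0.44 ± 0.21 (95% interval 0.00 to 0.89; edgeR adjusted p = 0.733), with 5 of 6 SW libraries above every ND library. Pmaip1 differed by -0.07 ± 0.12 (edgeR adjusted p = 0.994), and its SW and ND ranges overlapped. The other 5 members had log2 fold changes between -0.18 and 0.05. DESeq2 and limma-voom called no member in this comparison either.

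The switched diet was also set against continued high fat diet. No member was called in the edgeR test, against 0.124% of all genes, and 3 members had an unadjusted p under 0.05, against 11.1% of all genes. Pmaip1 had the smallest p, with a log2 fold change of -0.55 ± 0.12 (95% interval -0.79 to -0.30; edgeR adjusted p = 0.0525). It was also the 1 member whose groups did not overlap, all SW libraries lying below all HFD libraries, which held for 0.409% of all tested genes. The call was made by DESeq2 (adjusted p = 0.00732) and by edgeR without a filter on low counts (adjusted p = 0.00776), without HFD 1 (adjusted p = 0.0399), without ND 2 (adjusted p = 0.0468) or with the replicate set as a factor (adjusted p = 0.0186). Of 18 fits with 1 library left out, 2 made the call, and the edgeR adjusted p reached 0.199 in the others. Of the 15 other alternatives, 4 made it. Pmaip1 was not called by limma-voom, by limma on either FPKM scale or with only the 2 diets in the fit. With the erythroid level as a covariate its edgeR adjusted p was 0.0967. Within replicates 3 to 6 the Pmaip1 log2 fold change was -0.38 (edgeR adjusted p = 0.140), and within replicates 1 and 2 it was -0.85 (adjusted p = 0.358). Bbc3 differed by -0.53 ± 0.20 (edgeR adjusted p = 0.350), and by -0.67 (adjusted p = 0.0245) without HFD 1. The 3 comparisons share libraries, so they are not independent of each other.

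Ratios of a BH3-only or effector gene to an anti-apoptotic gene were taken within each library, in FPKM on the log2 scale, with no test. Bbc3 over Mcl1 averaged -2.15 ± 0.46 in HFD, -2.68 ± 0.29 in SW and -3.22 ± 0.21 in ND (SD, n = 6 each). HFD 1, at -2.97, was the 1 HFD library within the ND range, which ran from -3.49 to -2.88. Pmaip1 over Mcl1 ran from -4.22 to -3.59 in HFD, from -4.82 to -4.45 in SW and from -4.99 to -4.35 in ND. All HFD libraries thus lay above all SW and all ND libraries. This pair joins Pmaip1, with a log2 fold change of 0.48 in HFD against ND, to Mcl1, with -0.17. Part of that gap is therefore built in, and Pmaip1 alone overlapped ND. The share of gene pairs that separate in this way was not counted. Bcl2l11 over Bcl2, a pair often set against each other in T cells, averaged -1.19 ± 0.28 in HFD, -1.18 ± 0.11 in SW and -1.43 ± 0.15 in ND. HFD 1 was the lowest of all 18 libraries for this pair, at -1.70, and HFD 2 the highest, at -0.89. Bax over Bcl2 averaged 1.06 ± 0.27 in HFD, 1.08 ± 0.24 in SW and 0.92 ± 0.25 in ND. Bbc3 over Bcl2 averaged 0.58 ± 0.70 in HFD, 0.14 ± 0.24 in SW and -0.48 ± 0.27 in ND. Bak1 over Mcl1 averaged -3.26 ± 0.12 in HFD, -3.42 ± 0.06 in SW and -3.54 ± 0.13 in ND.

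**Figure D4:**
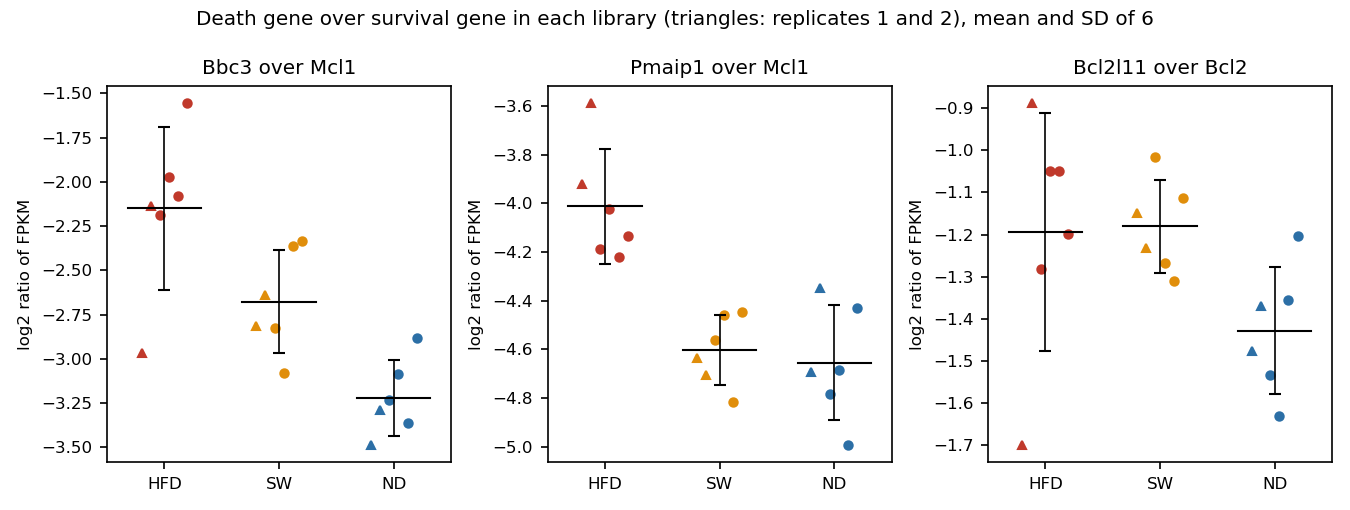
Log2 ratio of FPKM in each library for Bbc3 over Mcl1, Pmaip1 over Mcl1 and Bcl2l11 over Bcl2, for HFD, SW and ND from left to right, with mean and SD of 6. Pmaip1 over Mcl1 is higher in all 6 HFD libraries, from -4.22 upward, than in any SW or ND library. How many other gene pairs separate in this way was not counted.

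Genes around the BCL2 family were taken from 7 lists. Of the other BCL2 family genes, 11 of 16 were tested and edgeR and DESeq2 both called 0 in HFD against ND, with 1 at an unadjusted p under 0.05 in edgeR and a median log2 fold change of 0.02. Bmf, a BH3-only gene, differed by 0.48 ± 0.21 (edgeR adjusted p = 0.270) and Bcl2a1d, an anti-apoptotic gene with close copies among which reads may be split, by 0.32 ± 0.22 (adjusted p = 0.538). Bcl2a1c, Bcl2l10 and Hrk had 0 counts in every library. Of 19 genes acting after mitochondrial permeabilisation edgeR called 0, with 3 at an unadjusted p under 0.05 and a median of 0.00, and DESeq2 called 1, Apaf1. Apaf1, the scaffold of the apoptosome, differed by 0.25 ± 0.07 (edgeR adjusted p = 0.0623).

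Upstream, Il7r, which encodes the IL-7 receptor chain, rose in HFD with lowest, median and highest levels of 634, 801 and 952 CPM in HFD, 565, 643 and 715 CPM in SW, and 549, 569 and 650 CPM in ND. Its log2 fold change in HFD against ND was 0.43 ± 0.09 (edgeR adjusted p = 0.0173), called in all 18 fits with 1 library left out and in 13 of the 15 other alternatives. In the same list of 18 cytokine signalling genes Il4ra rose by 0.17 ± 0.04 (edgeR adjusted p = 0.0498), and Cish, a STAT5 target that restrains cytokine signalling, fell by 0.61 on the log2 scale (adjusted p = 0.0280). Of those 18 fits, the Il4ra call was kept in 2, without HFD 5 or without ND 2, and its adjusted p rose to 0.137 at most. The Cish call was lost without HFD 2, HFD 4, ND 4 or ND 5, at adjusted p-values of 0.0524 to 0.0709. The list's median was 0.08. DESeq2 called 5 genes of this list, Il2rb and Jak1 beside these 3, and limma-voom called 4, all but Jak1. Il2rb, which encodes a receptor chain shared by IL-2 and IL-15, differed by 0.29 ± 0.08 (edgeR adjusted p = 0.0558).

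Among 15 tested genes listed as regulators of BH3-only genes 1 was called, and its effect on the members was not tested. Tsc22d3, a glucocorticoid and FOXO target that encodes GILZ, had levels of 343, 785 and 857 CPM in HFD, 479, 555 and 593 CPM in SW, and 281, 403 and 437 CPM in ND (lowest, median, highest). The low library was HFD 1, as for Bbc3. Its log2 fold change was 0.88 ± 0.18 (edgeR adjusted p = 0.0232), and the call was lost without HFD 2, HFD 6 or ND 5, at adjusted p-values of 0.0515 to 0.0544. The FOXO genes Foxo1 (0.13; adjusted p = 0.400) and Foxo3 (0.06; adjusted p = 0.696), the p53 gene Trp53 (-0.05; adjusted p = 0.687) and Nr3c1, the glucocorticoid receptor gene (0.01; adjusted p = 0.977), were not called in the edgeR test. Of 17 tested other p53 target genes edgeR and DESeq2 both called 0, with 4 at an unadjusted p under 0.05 in edgeR, and their median log2 fold change was -0.06. Mdm2 (-0.14; edgeR adjusted p = 0.200) and Sesn1 (-0.21; adjusted p = 0.117) had the smallest p-values among them. Ddit4, next by p, went the other way (0.57; edgeR adjusted p = 0.202), and 6 of the 17 were above 0.

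Of 19 tested genes for turnover and partners of these proteins, Dynll1, a dynein light chain that binds BIM and BMF, fell by 0.48 on the log2 scale (edgeR adjusted p = 0.0229). It was called in all 18 fits with 1 library left out and in 10 of the 15 other alternatives. Its levels were 102, 145 and 162 CPM in HFD, 125, 155 and 177 CPM in SW, and 170, 190 and 225 CPM in ND (lowest, median, highest), so that no HFD library reached the ND range. The share of all tested genes that separate in this way is not given here. Fbxw7, of a ubiquitin ligase that acts on MCL1, differed by 0.20 ± 0.07 (edgeR adjusted p = 0.126). Of 9 genes of the death receptor arm that cleaves BID, Fasl rose by 0.94 ± 0.24 (edgeR adjusted p = 0.0498), and Tradd differed by -0.16 ± 0.06 (adjusted p = 0.202). The Fasl call was kept in 5 of the fits with 1 library left out, without HFD 1, HFD 3, HFD 5, SW 2 or SW 6, and its adjusted p reached 0.116 in the others. Fasl is also in the effector and memory list. Of the 106 tested genes of these 7 lists edgeR called 0 in SW against ND (11 at an unadjusted p under 0.05; 1 by DESeq2, Socs1) and 0 in SW against HFD (14 at an unadjusted p under 0.05; 3 by DESeq2, Il2rb, Socs1 and Fasl).

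**Figure D5:**
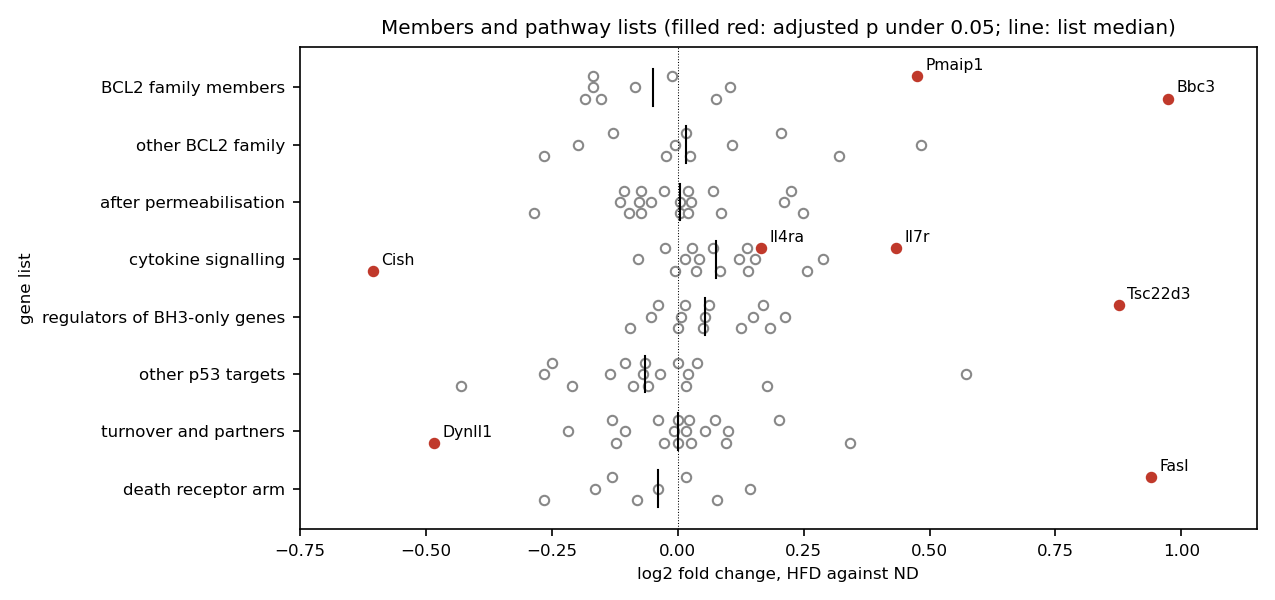
Log2 fold change in HFD against ND of the 10 members and of the tested genes of 7 surrounding lists, 1 point per gene, with a line at each list's median. Filled red points passed an adjusted p of 0.05, and list medians lie between -0.06 and 0.08.

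The genes whose log2 CPM followed a member most closely over the 18 libraries, among 8608 genes with a symbol and a mean of at least 10 CPM, are given as a description, since libraries share diet and replicate number. Bbc3 was followed by Txnip, an inhibitor of thioredoxin and of glucose uptake (Pearson r = 0.94, Spearman rho = 0.94), Tsc22d3 (r = 0.92) and the interferon-gamma receptor gene Ifngr1 (r = 0.90). With the diet means removed the r values were 0.89, 0.84 and 0.87. Txnip had 659 CPM in HFD 1 and 1264 to 1690 CPM in the other 5 HFD libraries, against 702 to 890 CPM in ND, so HFD 1 was low for Txnip as for Bbc3. Pmaip1 was followed by Trim59 (r = 0.86), Phf13 (r = 0.85) and Tnfaip3, a brake on NF-kappaB (r = 0.83), at 0.66, 0.62 and 0.66 with the diet means removed. The genes nearest Bbc3 and Pmaip1 were looked up after these 2 members' values had been seen. Mcl1 was followed by Dynll1 (r = 0.83), Ubap1 (r = 0.82) and Klhl7 (r = 0.82), at 0.69, 0.75 and 0.69 with the diet means removed. Genes that followed Bcl2 included Rwdd2b (r = 0.79) and Trpm7 (r = 0.78), at 0.76 and 0.78 with the diet means removed. Bcl2l11 was followed by Chpf2 (r = 0.86), Pik3r5, a regulatory subunit of PI3-kinase gamma (r = 0.82), and the transcription factor gene Nfatc2 (r = 0.81). With diet means removed these 3 stood at 0.87, 0.81 and 0.85, so these genes followed Bcl2l11 as closely within diets.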

How the data were processed

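Poly-A RNA-seq libraries of sorted CD8 T cells were prepared with random hexamer priming, per the labels' protocols. Reads were processed with fastp, and GRCm38 and mm10 are named as builds, per the submitters' processing notes. The aligner and counter were not given in the sources used here. Raw, unnormalized counts per gene were deposited by the authors, with 1 file per library. The authors also deposited FPKM values, which for the 9534 genes above 50 counts in every library were the counts times a gene factor and a library factor, within a relative departure of 2.5e-09. Of 56748 gene IDs, 52073 matched GENCODE M21, which may not be the annotation release of the authors. Total counts were 11947339 to 16398340 per library.

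From the counts, edgeR 4.0.16 (R 4.3.3; TMM, filterByExpr, robust quasi-likelihood F test, diet as the only factor, all 18 libraries) tested 13690 genes, with Benjamini-Hochberg adjustment and a threshold of 0.05. The steps were tested on simulated data. DESeq2 1.42.0, limma 3.58.1 and other alternatives were run. The lists' named genes are those called in a pairwise comparison and the 2 with the smallest p in HFD against ND. Beside them stand 4 regulators (Foxo1, Foxo3, Trp53, Nr3c1) and Ddit4, chosen after their values were seen. Some genes these rules take are not reported here. Members and lists were chosen with earlier results of these data known. Promoter windows are from RefSeq, GRCm38.p6.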

Additional observations from a re-analysis of the deposited data

Results flagged for a closer look

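A library was singled out where its gap to the nearest other library of the same diet was large against the range of the diet's 6 libraries. Of 57 groups of values examined 4 were singled out, and chance would single out about 1 in 20, a rate close to this. The groups are not independent, since sums and ratios are made of the same genes. Mcl1 made up 168 of the mean anti-apoptotic sum of 198 FPKM in HFD, so its flag and that of the sum overlap. Pmaip1 in HFD 2 was the highest of its diet at 39.7 CPM, with the next HFD library at 27.9 CPM. Mcl1 in HFD 1 was the lowest at 457 CPM, with the next at 552 CPM, and the summed FPKM of the 3 anti-apoptotic genes in HFD 1 was the lowest at 174, with the next at 198. Bad in ND 5 was the highest of its diet at 9.04 CPM, with the next at 6.89 CPM.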

How the results depend on the processing

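Of 990 alternative values of the members over 33 alternatives, 954 kept their direction and side of the threshold or were uncalled in both, 25 lost a call and 11 gained one, and no called value changed sign. Of the 954, 48 were uncalled values that differed in sign from the reported one. The call of Bbc3 in HFD against ND was lost in replicates 1 and 2 alone, with only the 2 diets in the fit (adjusted p = 0.0755) and with the erythroid covariate. With only the 2 diets Pmaip1 had an adjusted p of 0.0525, and it was uncalled by limma on log2 FPKM + 0.1 (0.0614) and + 1 (0.0625). The cause of these changes was not tested.

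The number of genes called in HFD against ND was 222, and it was 444 with DESeq2, 359 with limma-voom, 598 with the replicate block, 535 with the replicate set (1 and 2, or 3 to 6) as a factor, 5 within replicates 1 and 2 and 84 with the erythroid covariate. In SW against ND it was 2, and with DESeq2 48, limma-voom 29, limma on either FPKM scale 0, RLE factors 1, library totals 1, no filter 31, the replicate block 49, the set factor 22, replicates 3 to 6 alone 5, replicates 1 and 2 alone 0, only the 2 diets 19, the erythroid covariate 15 and without HFD 1 and 4 together 14. In SW against HFD it was 17, and in the same order 108, 8, 1 on either FPKM scale, 53 with no filter, 138 with the replicate block, 116 with the set factor, 2 in replicates 1 and 2, 0 with only the 2 diets, 3 with the covariate and 28 without HFD 1 and 4. For any difference it was 123, and with DESeq2 431, limma-voom 220, limma on log2 FPKM + 0.1 77, no filter 216, the replicate block 469, the set factor 444, replicates 1 and 2 alone 5 and the covariate 75.

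The members called in HFD against ND were 2, and 1 on either FPKM scale and without HFD 1 and 4 together, and 0 in replicates 1 and 2 alone, with only the 2 diets and with the covariate. In SW against HFD they were 0, and 1 (Pmaip1) with DESeq2, no filter, the replicate block (adjusted p = 0.00751) and the set factor (0.0186). For any difference they were 1, and 2 with DESeq2, the replicate block, the set factor and without HFD 1 and 4 together, and 0 on either FPKM scale, in either set of replicates alone and with the covariate. With the block Mcl1 was also called in HFD against ND (adjusted p = 0.0498), making 3 members, and with the set factor too (0.0425). Same-numbered libraries were not taken as paired, since deviations correlated over 0.1 in 7 of 18 pairs and not in all. These were all 6 pairs of replicates 1 and 2 (0.12 to 0.22) and 1 of 12 pairs of replicates 3 to 6 (-0.03 to 0.12), and 5 of 18 libraries matched best with their own number.

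With 1 library left out the genes called ran from 89 (without ND 5) to 301 (without HFD 1) in HFD against ND, from 0 to 16 in SW against ND, from 0 to 44 in SW against HFD and from 62 to 220 for any difference, each highest without HFD 1. The members called ran from 0 to 2 in HFD against ND, in SW against HFD and for any difference, and were 0 throughout in SW against ND. Members with few counts are limited by depth, Bad most of all at 70 to 130 counts per library.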
